A study of Arabidopsis thaliana with 18 samples.

Results

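The genes described here are 66 Arabidopsis thaliana genes whose annotated symbols begin with CYP or UGT and a number. They were taken from the probe sets annotated to a single gene. Of 73 such symbols, 7 were left out by the rule for the set, namely UGT78D1, UGT78D2, UGT78D3, UGT84A1, UGT72E1, UGT72E2 and UGT74B1. They were chosen by name out of 13350 genes with a probe set of their own among the 22746 probe sets of the array that are no controls. They comprise 24 cytochrome P450 genes, 40 UGT genes and 2 genes that share only the letters. The annotation gives CYP59 and CYP71 as cyclophilins, proteins that help others fold, and both were kept in the counts and are described apart. Each gene had 1 probe set, so no choice between probe sets was needed.

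Cytochromes P450 are haem enzymes of the endoplasmic reticulum that insert oxygen into small molecules, and UGTs are transferases that move a sugar from a UDP-sugar to small molecules. In leaves both kinds of enzyme act on hormones, phenylpropanoids, indole compounds, sterols and foreign chemicals, and the added sugar usually makes a compound more soluble and inactive. Both families hold many closely related genes, often side by side on a chromosome.

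The study used 18 Affymetrix ATH1 arrays, each with RNA from the aerial region of 1 plant, and 3 plants made up each of 6 groups. The groups were the mutant tt4, impaired in flavonoid biosynthesis, the mutant sng1, impaired in the synthesis of sinapoyl malate, and the wild type (WT), each under ultraviolet light (UV) and under continuous light (CO). All plants were of the Col-0 background, were 18 days old, and had grown for 17 long days (16 h bright, 8 h dark, 22 °C) on solid medium containing 1% sucrose. On the last day the UV plants received 24 h of ultraviolet light, which the series title calls UV-B, and the CO plants received 8 h of additional light, and harvest was 6 h after the bright phase began. The labels mention no additional light for UV plants, so UV and a difference in other light cannot be told apart. The labels give neither the alleles nor a batch, and the running code in the sample titles places all UV arrays before all CO arrays, so any order of handling and the light cannot be told apart. Arrays are named by group and replicate, as in tt4_UV 1.

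The values are signals of probe sets on a log2 scale after quantile normalization, with signals under 16 set to 16, so that 4.0 is the floor. Levels of different probe sets are not compared with each other. A gene is called changed where limma's adjusted p, taken over all 22746 probe sets, is under 0.05, and a UV effect is the log2 difference UV minus CO with its standard error (SE). Of the 66 genes, 44 were above the floor on all 18 arrays, 6 were at the floor on 1 to 9 arrays and 12 on 10 to 17 arrays. CYP71B21, CYP71B31, CYP718 and CYP79A2 were at the floor on all 18 arrays. Among the 44, the SD within groups ran from 0.0765 to 0.755, with a median of 0.321.

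Log2 values of arrays of the same group correlated at 0.972 to 0.991. Of the markers of other tissues, no root marker was measured by name (0 of 12), and of 10 flower and pollen markers AMS was at the floor on 15 arrays and TUA1 was 0.10 ± 0.04 higher under UV (limma, adjusted p = 0.0471). The 4 measured green leaf markers of 13, RCA, PSAN, PRK and SBPASE, were all lower under UV. The log2 of their summed signals ran from 14.78 to 15.12 on UV arrays and from 15.33 to 15.59 on CO arrays. GAPDH has 2 control pairs of 3′ and 5′ probe sets, whose 3′ over 5′ ratio is higher in more degraded RNA. In the first pair the log2 ratio averaged 0.0927 ± 0.091 on the 9 UV arrays, against −0.000248 ± 0.0578 on the 9 CO arrays (SD, exact permutation p = 0.0157). In the second pair it averaged 0.42 ± 0.247 on UV arrays, against 0.534 ± 0.0808 on CO arrays (SD, exact permutation p = 0.212). The part of leaf markers and RNA quality in the results was not tested. TT4 and SNG1 are not named on the array here, so the genotypes were not checked by those genes.

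UV against CO, averaged over the 3 genotypes, raised 22 of the 66 genes and lowered 9. Among all probe sets, 42.8% were called, 20.9% higher and 22.0% lower, while among the 66 genes 47.0% were called, 33.3% higher and 13.6% lower. The share called was thus near that of the array, with more genes called higher than lower. The median UV effect of the 66 genes was 0.06, against 0.00 over all probe sets. At least 2-fold higher were 13 of the 66 genes, where 3.89% of all probe sets were, and none was at least 2-fold lower, where 3.31% of all probe sets were. In RNA from whole shoots, fewer cells of a type and less RNA per cell cannot be told apart.

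Of the 40 UGTs, 52.5% were called, 16 of them higher and 5 lower (12.5%), where 42.8% of all probe sets were called, 20.9% higher and 22.0% lower. Of the 24 P450s, 5 were called higher (20.8%) and 4 lower (16.7%), which is near the array's shares. The difference between the families was not tested. Of the cyclophilins, CYP59 was 0.43 ± 0.09 higher under UV (limma, adjusted p = 0.00112) and CYP71 was not called (0.09 ± 0.10, adjusted p = 0.531), so without these 2 genes 21 of 64 rose and 9 fell.

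**Figure D1:**
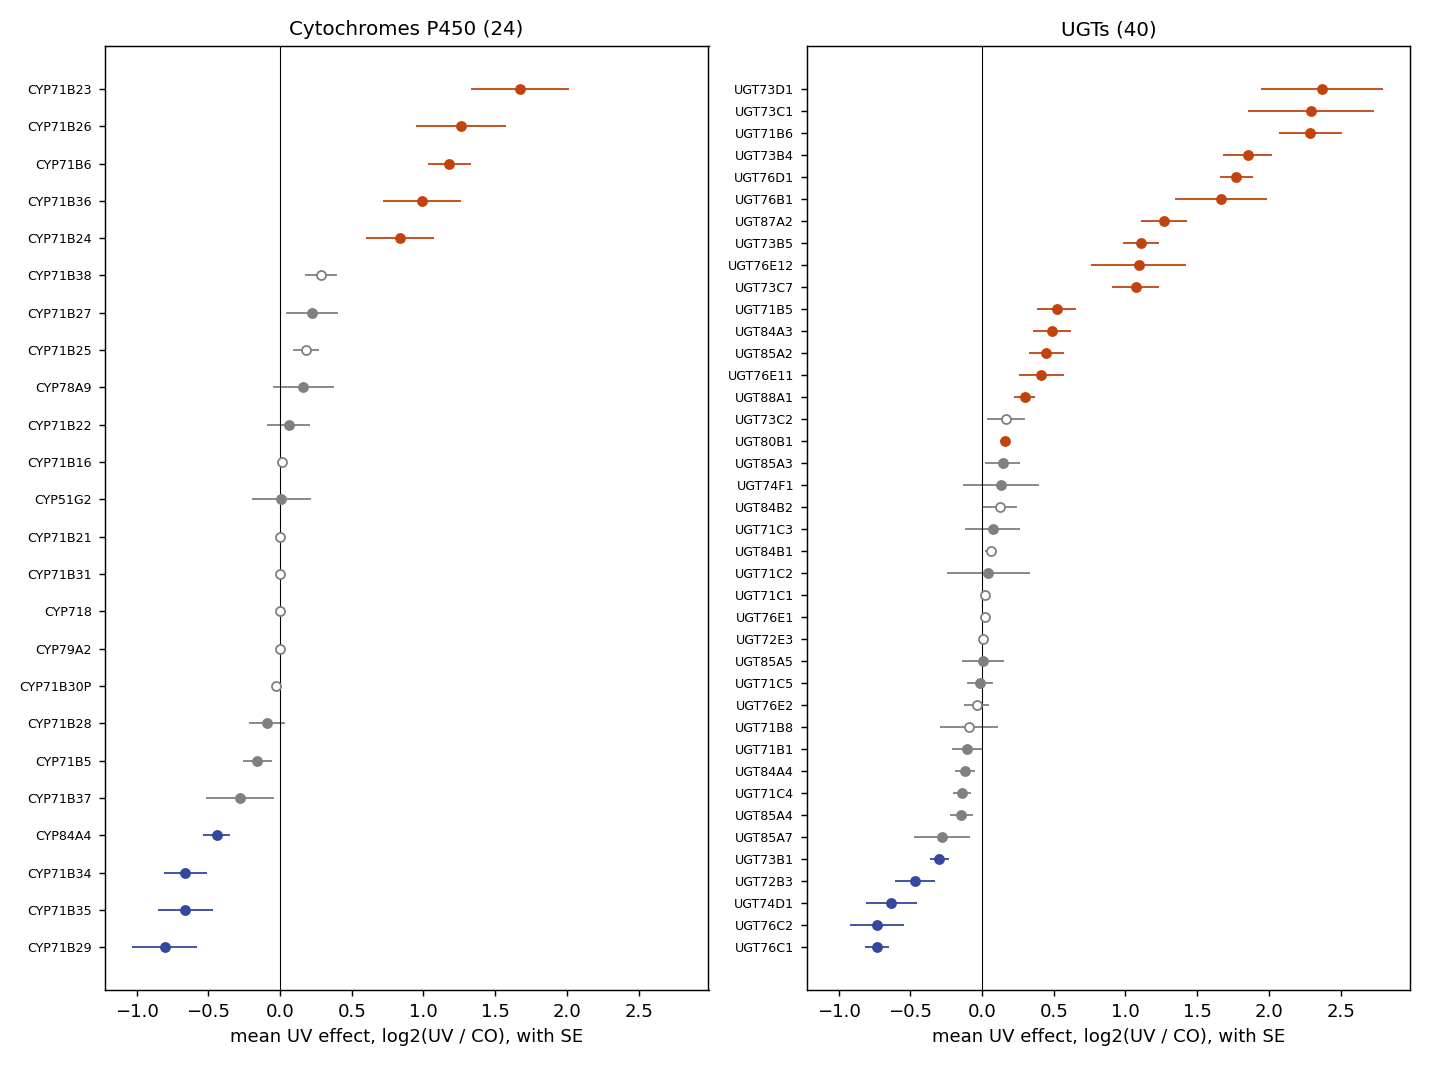
Mean UV effect of each of the 24 P450 genes (left) and 40 UGT genes (right), as log2(UV / CO) averaged over the 3 genotypes with its SE on the horizontal axis. Orange marks genes called higher under UV, blue marks genes called lower, grey marks genes not called, and open circles mark genes at the floor on 10 or more of the 18 arrays; the genes reach 2.37 (UGT73D1), and the lowest gene is CYP71B29 at −0.80.

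The list for salicylic acid and defence had 6 of 11 genes measured. Of these, 4 rose and none was called lower, where 20.9% of all probe sets were higher and 22.0% lower. The role lists were drawn up with earlier results of these data known, and their counts are descriptions. UGT76D1 glucosylates dihydroxybenzoic acids, which are breakdown products of salicylic acid. It read 7.02, 7.05 and 6.70 on the tt4 UV arrays, 6.39, 6.73 and 6.46 on the sng1 UV arrays and 6.49, 6.59 and 6.80 on the WT UV arrays. In CO, UGT76D1 read 4.39, 4.90 and 5.20 in tt4, 4.38, 4.64 and 4.56 in sng1 and 5.65, 5.04 and 5.51 in WT. All 9 UV arrays lay above all 9 CO arrays, the rise was 1.77 ± 0.12 (3.42-fold, limma, adjusted p = 1.49e-07), and no gene of the set had a smaller adjusted p. With a floor of 64 its rise was 0.69 (adjusted p = 1.45e-06), a floor above all of its CO signals.

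UGT76B1 glucosylates isoleucic acid, salicylic acid and N-hydroxypipecolic acid, and it restrains defence. Its UV signals were 10.15, 9.77 and 9.98 in tt4, 10.09, 10.51 and 9.82 in sng1 and 9.06, 10.99 and 9.30 in WT. In CO, UGT76B1 was at 8.11, 7.41 and 7.85 in tt4, 8.56, 9.14 and 8.82 in sng1 and 9.19, 6.89 and 8.70 in WT. The tt4 and sng1 arrays did not overlap between the lights, while WT_UV 1 lay below WT_CO 1. The mean rise was 1.67 ± 0.32 (limma, adjusted p = 0.00081).

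UGT73D1, in the list for salicylic acid and defence, had the largest rise of the set with the floor of 16, and a smaller rise than UGT76B1 with a floor of 64. Under UV it gave 7.68, 7.29 and 6.56 in tt4, 7.23, 6.40 and 7.05 in sng1 and 5.94, 8.13 and 6.53 in WT. The CO signals of UGT73D1 were 4.0, 4.35 and 4.0 in tt4, 4.0, 4.99 and 4.99 in sng1 and 4.0, 4.09 and 7.07 in WT. Array WT_CO 3 was thus within the range of the UV arrays, and the other 8 CO arrays lay between 4.0 and 4.99. The rise was 2.37 ± 0.43 (5.17-fold, limma, adjusted p = 0.000492), or 0.87 with a floor of 64 (adjusted p = 0.0235).

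UGT73B5, which takes part in resistance to bacteria, ranged from 8.68 to 9.50 on UV arrays, with a median of 9.02, and from 7.30 to 8.27 on CO arrays, with a median of 8.11. Its rise of 1.11 ± 0.13 (limma, adjusted p = 1.18e-05) went with no overlap between the lights. The salicylate glucosyltransferase gene UGT74F1 (0.13 ± 0.26, adjusted p = 0.754) and UGT71C3, whose enzyme glucosylates methyl salicylate (0.07 ± 0.19, adjusted p = 0.826), were not called.

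Glucosylation inactivates abscisic acid, and 3 of 8 listed genes of its breakdown and conjugation were measured. UGT71B6 conjugates abscisic acid. It had 7.83, 8.28 and 6.81 under UV in tt4, 8.06, 7.93 and 7.92 in sng1 and 7.91, 7.84 and 7.04 in WT. In CO, UGT71B6 had 5.93, 4.94 and 5.65 in tt4, 5.60, 5.60 and 6.15 in sng1 and 5.57, 4.82 and 4.77 in WT. The lights did not overlap, and the rise was 2.29 ± 0.22 (4.89-fold, limma, adjusted p = 2.74e-06). UGT71C5, which also conjugates abscisic acid, was not called (−0.01 ± 0.09, adjusted p = 0.965). The third, UGT71B8, was at the floor on 13 arrays.

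Among the cytokinin genes, 3 of 6 were measured, with 1 higher and 2 lower, where 20.9% of all probe sets were higher and 22.0% lower. UGT76C1 and UGT76C2 attach glucose to a ring nitrogen of cytokinins, which inactivates them. UGT76C1 gave 7.72, 7.41 and 7.79 under UV in tt4, 7.63, 7.59 and 7.59 in sng1 and 7.66, 7.24 and 7.49 in WT. In CO, UGT76C1 gave 8.00, 8.60 and 8.22 in tt4, 8.34, 8.21 and 8.29 in sng1 and 8.37, 8.50 and 8.17 in WT. All 9 UV arrays lay below all 9 CO arrays, as they did for 7.99% of all probe sets, and the change was −0.73 ± 0.09 (limma, adjusted p = 1.53e-05).

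UGT76C2 ran from 7.35 to 8.53 on UV arrays, with a median of 8.08, and from 8.17 to 9.28 on CO arrays, with a median of 8.80. The lights overlapped, and the change was −0.73 ± 0.19 (limma, adjusted p = 0.00626). The call ended when tt4_UV 3, tt4_CO 2 and WT_CO 2, the 3 arrays of lowest weight in limma's estimate of array quality, were left out together (−0.56, adjusted p = 0.0504), a setting chosen after seeing the data.

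UGT73C1, whose enzyme adds glucose to the side chain of zeatin in vitro and also acts on foreign compounds, rose instead. It had 7.70, 7.95 and 8.78 under UV in tt4, 8.77, 8.81 and 8.64 in sng1 and 7.66, 8.68 and 8.41 in WT. The CO signals of UGT73C1 were 6.28, 4.0 and 6.64 in tt4, 6.91, 6.89 and 6.36 in sng1 and 6.50, 4.0 and 7.18 in WT. Arrays tt4_CO 2 and WT_CO 2 were at the floor, and no CO array reached the lowest UV array. The rise was 2.29 ± 0.44 (4.90-fold, limma, adjusted p = 0.000808).

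For auxin, 3 of 9 listed genes were measured and 1 fell, where 22.0% of all probe sets were lower. UGT74D1, which glucosylates auxins, was between 8.55 and 9.71 on UV arrays, with a median of 9.19, and between 9.02 and 10.34 on CO arrays, with a median of 9.72. Its change was −0.63 ± 0.18 (limma, adjusted p = 0.0106), with overlap between the lights. UGT84B1, whose enzyme makes a glucose ester of auxin, was at the floor on 16 arrays, and its neighbour UGT84B2 on 10 arrays.

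**Figure D2:**
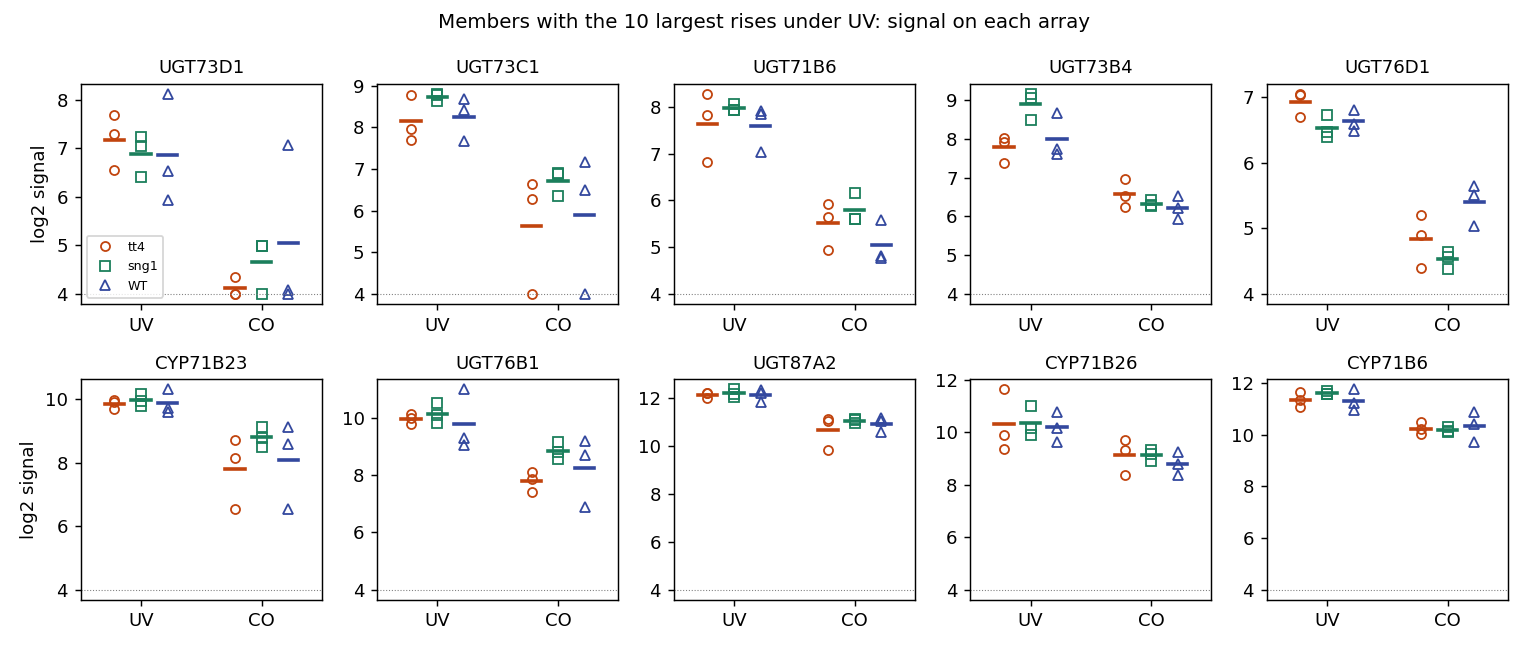
Log2 signal on each of the 18 arrays for the 10 genes with the largest mean rises under UV; UV arrays are on the left and CO arrays on the right of each panel, symbols mark tt4, sng1 and WT, short bars mark the mean of 3 arrays, and the dotted line is the floor of 4.0. The lights do not overlap for UGT73C1, UGT71B6, UGT73B4, UGT76D1, CYP71B23, UGT87A2 and CYP71B6, while WT_CO 3 of UGT73D1, at 7.07, lies within the range of the UV arrays.

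Of the list for stress and foreign compounds, 6 of 23 genes were measured, with 4 higher and 1 lower (UGT73B1). Among all probe sets, 20.9% were called higher and 22.0% lower, and the list was drawn up with earlier results known. CYP71B23 and UGT73C1, described with the P450s and the cytokinin genes, are among those that rose, and UGT73C2 was at the floor on 16 arrays. UGT73B4, an enzyme able to glucosylate foreign phenols, read 8.03, 7.92 and 7.38 under UV in tt4, 9.17, 9.04 and 8.49 in sng1 and 7.61, 8.67 and 7.73 in WT. In CO, UGT73B4 read 6.23, 6.52 and 6.96 in tt4, 6.27, 6.30 and 6.42 in sng1 and 6.52, 5.95 and 6.21 in WT. The lights did not overlap, and the rise was 1.85 ± 0.17 (3.61-fold, limma, adjusted p = 1.9e-06).

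UGT87A2, which affects flowering time and stress tolerance, rose as well. It gave 12.23, 12.02 and 12.20 under UV in tt4, 12.04, 12.37 and 12.19 in sng1 and 11.86, 12.36 and 12.20 in WT. In CO, UGT87A2 gave 11.12, 9.86 and 11.06 in tt4, 11.10, 10.99 and 11.12 in sng1 and 11.04, 10.57 and 11.19 in WT. All UV arrays lay above all CO arrays, and tt4_CO 2 was the lowest CO array. The rise was 1.27 ± 0.16 (limma, adjusted p = 2.51e-05). UGT73B1 moved the other way and by less: it lay between 8.89 and 9.41 on UV arrays and between 9.25 and 9.66 on CO arrays, a UV effect of −0.30 ± 0.07 (limma, adjusted p = 0.00199). UGT72B3, a relative of the xenobiotic glucosyltransferase UGT72B1 and not itself in the list, also fell by 0.47 ± 0.14 on the log2 scale (limma, adjusted p = 0.0139).

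Of the phenylpropanoid genes, 4 of 17 were measured, with 1 higher and 1 lower, where 20.9% of all probe sets were higher and 22.0% lower. UGT84A3, which makes glucose esters of hydroxycinnamic acids, ran from 10.11 to 10.93 on UV arrays and from 9.66 to 10.39 on CO arrays, and it rose by 0.49 ± 0.13 (limma, adjusted p = 0.00888). UGT84A4, an enzyme of the same reaction, was not called (−0.12 ± 0.07, adjusted p = 0.199). CYP84A4, a P450 of the synthesis of arabidopyrones, ran from 5.64 to 6.47 on UV arrays and from 6.24 to 6.80 on CO arrays. It fell by 0.44 ± 0.10 (limma, adjusted p = 0.00183). UGT71C1 was at the floor on 17 arrays. UGT73C7, which also glucosylates hydroxycinnamic acids, was on no role list. It lay between 5.76 and 7.54 on UV arrays and between 5.36 and 6.03 on CO arrays, and rose by 1.07 ± 0.17 (adjusted p = 0.000152).

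The other role lists held few measured genes. For sterols, 2 of 13 were measured: the sterol glucosyltransferase gene UGT80B1 rose by 0.16 ± 0.04 (limma, adjusted p = 0.00255), and CYP51G2, a transcribed pseudogene, was not called (0.01 ± 0.21, adjusted p = 1). CYP71B31, a P450 of floral terpenes, and CYP79A2, which opens the path to benzylglucosinolate, were at the floor throughout. Lists for brassinosteroids, gibberellins, jasmonates, carotenoids and fatty acids had 0 measured members, so nothing is reported for those pathways. Of the lists of partner genes that are no P450 or UGT, 6 of 7 had no measured gene, and the jasmonate list had OPCL1, a CoA ligase of jasmonate synthesis, which was 0.74 ± 0.11 higher under UV (limma, adjusted p = 7.8e-05).

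The P450 genes were mostly of the CYP71B subfamily, with 19 of 24 measured genes, of which 5 rose, 3 fell and 11 were not called. Among all probe sets 20.9% were called higher and 22.0% lower, so the CYP71B counts are near those of the array. CYP71B6 makes indole carboxylic acid from indole acetonitrile and was the single riser of 2 measured genes (of 17 listed) for glucosinolates and camalexin. It read 11.63, 11.06 and 11.35 under UV in tt4, 11.58, 11.70 and 11.57 in sng1 and 10.96, 11.75 and 11.22 in WT. In CO, CYP71B6 read 10.47, 10.01 and 10.21 in tt4, 10.10, 10.14 and 10.29 in sng1 and 10.41, 9.70 and 10.85 in WT. The lights did not overlap, with WT_UV 1 and WT_CO 3 the nearest arrays, and the rise was 1.18 ± 0.15 (2.27-fold, limma, adjusted p = 2.95e-05).

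CYP71B23 had the largest rise among the P450s. Under UV it gave 9.99, 9.93 and 9.68 in tt4, 9.80, 10.16 and 9.96 in sng1 and 9.73, 10.31 and 9.62 in WT. In CO, CYP71B23 gave 8.72, 6.54 and 8.16 in tt4, 8.51, 8.79 and 9.12 in sng1 and 8.60, 6.56 and 9.13 in WT. The UV arrays were close together and the CO arrays spread widely, with tt4_CO 2 and WT_CO 2 lowest, and the lights did not overlap. The rise was 1.67 ± 0.34 (3.19-fold, limma, adjusted p = 0.00138).

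CYP71B26 ran from 9.37 to 11.64 on UV arrays, with a median of 10.16, and from 8.36 to 9.72 on CO arrays, with a median of 9.18. Its rise of 1.26 ± 0.31 (limma, adjusted p = 0.00493) went with overlap, and it was 0.84 (adjusted p = 0.0132) without tt4_UV 3, tt4_CO 2 and WT_CO 2, of which tt4_UV 3 was its highest array. CYP71B36 ran from 6.24 to 7.42 on UV arrays and from 4.82 to 7.23 on CO arrays. It rose by 0.99 ± 0.27 (adjusted p = 0.00946), or 0.61 with a floor of 64 (adjusted p = 0.0167), and CYP71B24 rose by 0.83 ± 0.24 (adjusted p = 0.0112). In both genes the lights overlapped.

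The 3 CYP71B genes that fell were CYP71B29, CYP71B34 and CYP71B35. CYP71B34 gave 8.00, 8.12 and 8.88 under UV in tt4, 8.16, 8.49 and 8.40 in sng1 and 8.08, 7.75 and 8.29 in WT. In CO, CYP71B34 gave 9.10, 8.54 and 9.33 in tt4, 9.06, 9.04 and 8.88 in sng1 and 8.74, 8.37 and 9.05 in WT. In sng1 and WT every UV array was below every CO array of the same genotype, and in tt4 the array tt4_UV 3 was above tt4_CO 2. The change was −0.66 ± 0.15 (limma, adjusted p = 0.00246). CYP71B35 ran from 5.32 to 6.81 on UV arrays and from 6.56 to 7.23 on CO arrays. It fell as far (−0.66 ± 0.19, adjusted p = 0.0122), and CYP71B29 fell by 0.80 ± 0.23 (adjusted p = 0.0112), or by 0.30 with a floor of 64 (adjusted p = 0.0232), with WT_UV 3 at the floor.

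**Figure D3:**
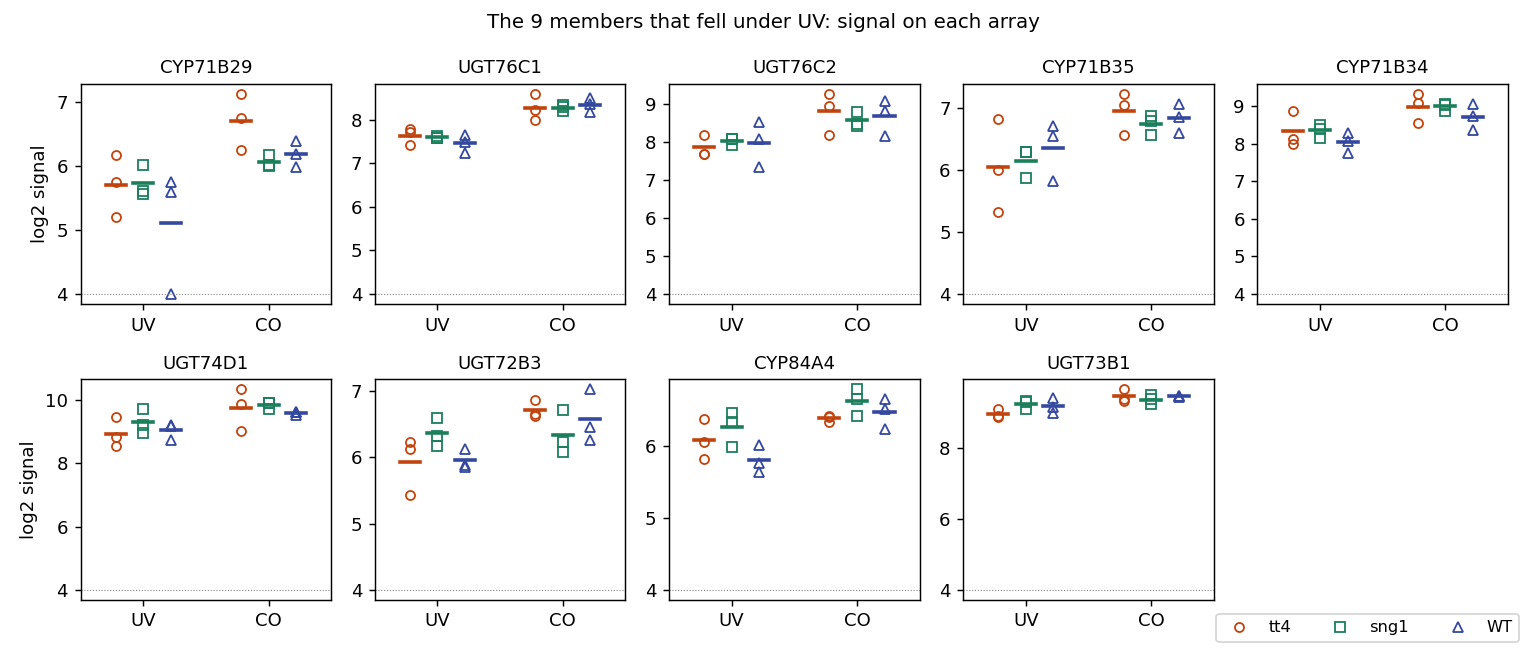
Log2 signal on each of the 18 arrays for the 9 genes called lower under UV, drawn as UV arrays on the left and CO arrays on the right of each panel, with symbols for tt4, sng1 and WT, short bars for the mean of 3 arrays and a dotted line at the floor of 4.0. UGT76C1 is the gene whose UV arrays, at most 7.79, all lie below its CO arrays, which are at least 8.00.

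None of the 5 UGT71C genes was called by limma (0 of 5), with UV effects from −0.14 (UGT71C4) to 0.07 (UGT71C3). Among all probe sets 42.8% were called, and UGT71C1 was at the floor on 17 arrays. Of 5 UGT85A genes only UGT85A2 was called, at 0.45 ± 0.12 (limma, adjusted p = 0.00886), and the lowest was UGT85A7 at −0.28 (adjusted p = 0.287). The call of UGT85A2 ended without tt4_UV 3, tt4_CO 2 and WT_CO 2 (0.38, adjusted p = 0.0647). The 4 UGT71B genes ran from −0.10 (UGT71B1) to 2.29 (UGT71B6), with UGT71B5 also called at 0.52 ± 0.14 (limma, adjusted p = 0.00732), a call that ended with a floor of 64 (0.01, adjusted p = 0.559).

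UGT88A1, the one member of its subfamily, rose by 0.30 ± 0.07 (limma, adjusted p = 0.0047). The 4 UGT76E genes ran from −0.04 (UGT76E2) to 1.09 (UGT76E12, limma, adjusted p = 0.0163), and UGT76E1 and UGT76E2 were at the floor on 10 or more of the 18 arrays. UGT76E11 was called at the edge of the threshold (0.41 ± 0.16, adjusted p = 0.0495). Its call ended without any 1 of 12 of the 18 arrays (adjusted p from 0.053 to 0.0983), namely tt4_UV 3, sng1_UV 2, sng1_UV 3, WT_UV 2, WT_UV 3, tt4_CO 2, tt4_CO 3, the 3 sng1_CO arrays, WT_CO 2 and WT_CO 3. All 3 UGT73B genes were called, 2 higher and 1 lower, and of 3 UGT73C genes UGT73C1 and UGT73C7 rose while UGT73C2 was at the floor on 16 arrays. These subfamilies are small, and 20.9% of all probe sets were called higher and 22.0% lower.

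Certain arrays recurred at the ends of the range. Among the 10 largest rises, WT_CO 2 was the lowest of the 9 CO arrays for 5 genes, ties at the floor included, and tt4_CO 2 for 3. WT_UV 2 was the highest of the 9 UV arrays for 4. Among all 22 genes that rose, WT_CO 2 and tt4_CO 2 were each the lowest CO array for 7. These genes were chosen by the same difference between the lights. No such counts over all probe sets are given here, so these counts describe the members only. No single array was needed for a call of the mean UV effect among the named genes other than UGT76E11. Without tt4_UV 3, tt4_CO 2 and WT_CO 2, 29 genes were called in place of 31, and 28 of them were the same.

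Neighbouring genes were compared because many members lie side by side, a comparison chosen after the data were seen. There were 19 pairs of adjacent members in the annotation, and 18 had a signal above the floor in both genes. In 2 pairs both genes rose, in 2 both fell, in 1 the neighbours moved in opposite directions, in 6 only 1 was called and in 8 neither was. Among all probe sets 42.8% were called, 20.9% higher and 22.0% lower. No counts for other adjacent genes are given here, so these counts describe the members only. The difference between the UV effects of neighbours was tested by an exact permutation of the light labels within each genotype, over 8000 arrangements, and p-values were adjusted over the 18 pairs. By this test 7 pairs differed. They include UGT73C1 and UGT73C2, where UGT73C2 was at the floor on 16 arrays and the difference only restates the rise of UGT73C1. They also include UGT73D1 and UGT73C7, which did not pass with a floor of 64, where 6 pairs differed. A floor of 64 is above every signal of UGT73C2 and CYP71B37. For their pairs with UGT73C1 and CYP71B36, it leaves only the rise of the other gene.

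**Figure D4:**
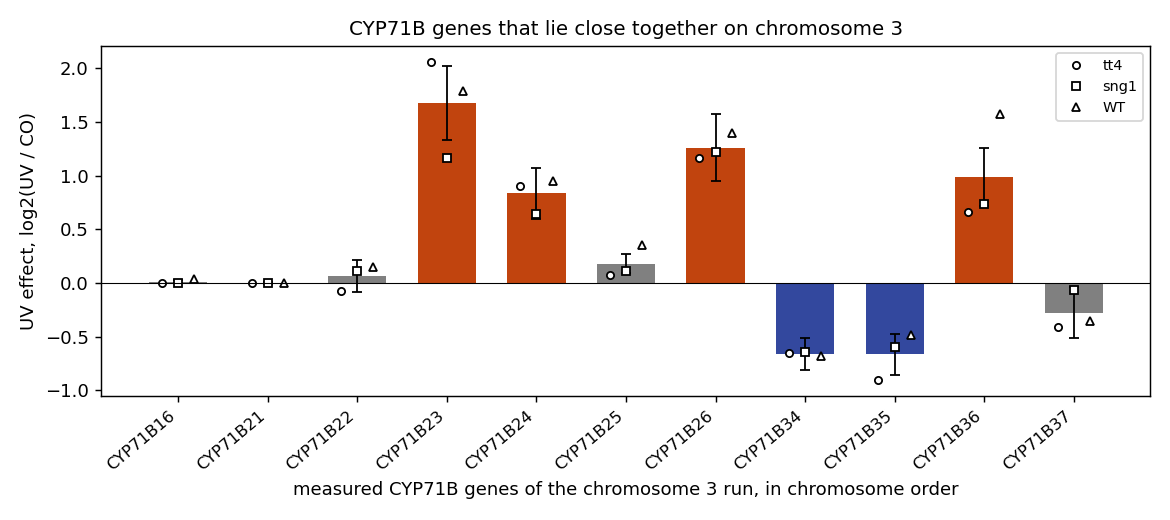
UV effect, as log2(UV / CO), of the 11 measured CYP71B genes in the run on chromosome 3, in their order along it; bars are means over the 3 genotypes with their SE, symbols are the effects in tt4, sng1 and WT, orange bars are called higher, blue bars lower and grey bars not called. CYP71B35 at −0.66 and its neighbour CYP71B36 at 0.99 point in opposite directions in all 3 genotypes.

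On chromosome 3, CYP71B genes with loci from AT3G26150 (CYP71B16) to AT3G26330 (CYP71B37) form a run, and genes of both directions lie within it. CYP71B23 (AT3G26210) exceeded its neighbour CYP71B22 (AT3G26200) by 1.61 (exact permutation, adjusted p = 0.00225), with differences of 2.13 in tt4, 1.05 in sng1 and 1.65 in WT. CYP71B36 (AT3G26320) exceeded CYP71B35 (AT3G26310) by 1.65 (exact permutation, adjusted p = 0.003), where CYP71B36 rose and CYP71B35 fell. This pair was the one with opposite calls.

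CYP71B37, the next gene of the run, lay below CYP71B36, with a difference of −1.26 (exact permutation, adjusted p = 0.0231). That difference no longer passed without tt4_UV 1 (−1.07, adjusted p = 0.0714), without WT_UV 2 (−1.17, adjusted p = 0.0553) or without tt4_CO 2 (−1.01, adjusted p = 0.0681). It was −0.61 with a floor of 64 (exact permutation, adjusted p = 0.0255). That floor is above every signal of CYP71B37, so the value only restates the rise of CYP71B36. CYP71B34 and CYP71B35 both fell and differed by −0.00 (exact permutation, adjusted p = 0.994), which does not show that they act alike.

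UGT84A4 was below UGT84A3 on chromosome 4, with a difference of −0.61 (exact permutation, adjusted p = 0.00562). UGT73B4 exceeded UGT73B5 by 0.74 (exact permutation, adjusted p = 0.0108), although both rose, with differences of 0.11 in tt4, 1.33 in sng1 and 0.80 in WT, and the annotated genes overlap by 1866 bases.

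UGT73C7 and UGT73D1 lie next to each other on chromosome 3 and both rose, with a difference of −1.30 (exact permutation, adjusted p = 0.0231). It no longer passed without WT_UV 2 (−1.19, adjusted p = 0.0568), WT_CO 1 (−1.11, adjusted p = 0.0656) or WT_CO 2 (−1.16, adjusted p = 0.0624), nor with a floor of 64 (−0.10, exact permutation, adjusted p = 0.82). UGT76C1 and UGT76C2 on chromosome 5 both fell and differed by −0.00 (exact permutation, adjusted p = 0.994). Whether probes of such neighbouring, related genes read each other's transcripts was not tested.

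Within single genotypes fewer genes were called. In tt4, 12 genes were higher and 4 lower, 24.2% of the 66 against 26.7% of all probe sets. In sng1, 11 were higher and 1 lower, 18.2% against 23.5%. In WT, 11 were higher and 2 lower, 19.7% against 24.4%. The calls leaned to the higher side in each genotype, while among all probe sets 12.7% were higher and 14.1% lower in tt4, 11.9% higher and 11.6% lower in sng1, and 12.5% higher and 11.9% lower in WT. These 3 effects come from separate arrays.

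In all 3 genotypes 7 genes were called higher, 10.6% of the 66 against 7.74% of all probe sets, and 1 was called lower, against 7.77%. All 9 UV arrays exceeded all 9 CO arrays for 8 genes, 12.1% against 7.9%. UGT71B6 rose by 2.13 in tt4 (limma, adjusted p = 0.00121), 2.19 in sng1 (0.00125) and 2.55 in WT (0.000483), or 1.60 in WT with a floor of 64. UGT76D1 rose by 2.09 in tt4, 2.00 in sng1 and 1.23 in WT, with adjusted p-values from limma between 2.32e-05 and 0.000897, and with a floor of 64 by 0.92, 0.53 and 0.63 in the same order. UGT73B4 rose by 1.21 in tt4 (limma, adjusted p = 0.00792), 2.57 in sng1 (8.23e-05) and 1.78 in WT (0.000896).

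Smaller rises in all 3 genotypes were those of UGT87A2, at 1.47 in tt4, 1.13 in sng1 and 1.21 in WT, and of UGT73B5, at 1.10 in tt4, 1.24 in sng1 and 0.98 in WT. UGT76C1 was the gene that fell in each, by 0.64 in tt4, 0.68 in sng1 and 0.89 in WT. The calls of UGT71B6, UGT76D1, UGT73B4, UGT87A2, UGT73B5 and UGT76C1 held when any 1 array was left out. With only the 6 arrays of a genotype in the fit, those of UGT71B6, UGT73B4, UGT73B5, UGT76C1 and UGT87A2 in tt4 and of UGT73B5 in WT ended (limma, adjusted p from 0.056 to 0.113). CYP71B6 rose by 1.11 in tt4, 1.44 in sng1 and 0.99 in WT, but its WT call ended without WT_UV 2 (0.77, limma, adjusted p = 0.0695) or WT_CO 2 (0.68, adjusted p = 0.0595). UGT73C7 rose by 0.87 in tt4, 1.32 in sng1 and 1.02 in WT. Its WT call ended without WT_UV 2 (0.74, limma, adjusted p = 0.0922) or WT_CO 2 (0.97, adjusted p = 0.0669), and its tt4 call ended without tt4_UV 1, tt4_UV 2, any tt4_CO array, sng1_CO 2, sng1_CO 3, WT_CO 1 or WT_CO 3 (adjusted p from 0.0513 to 0.152). With a floor of 64 the rise of UGT73C7 was 0.42 in tt4 (adjusted p = 0.307) and 0.64 in WT (adjusted p = 0.104), and with values as deposited both calls ended (adjusted p = 0.0504 in tt4 and 0.0611 in WT).

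**Figure D5:**
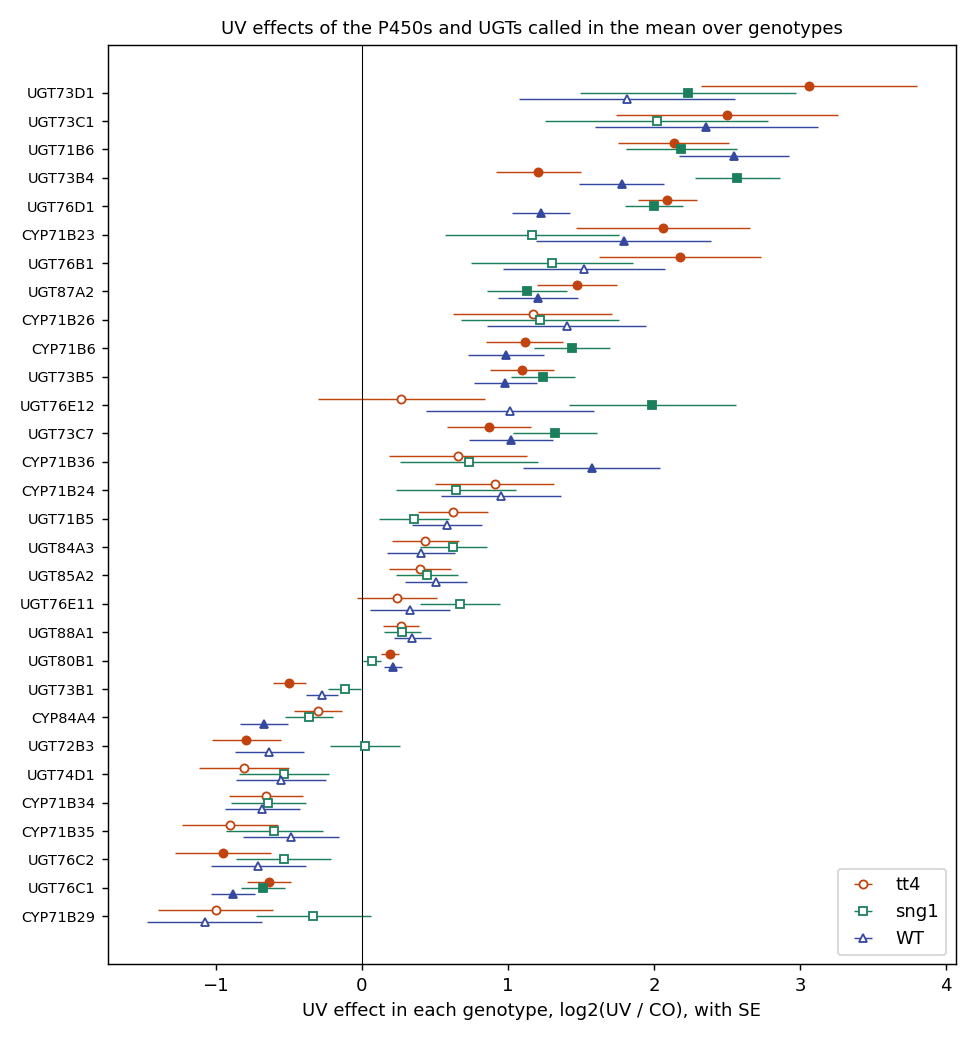
UV effects in tt4 (circles), sng1 (squares) and WT (triangles) with their SE, as log2(UV / CO), for the 30 P450 and UGT genes called in the mean over genotypes; filled symbols are called in that genotype. UGT73B4 runs from 1.21 in tt4 to 2.57 in sng1.

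Some genes called in the mean were not called in any single genotype. CYP71B26 was higher by 1.17 in tt4, 1.22 in sng1 and 1.40 in WT (limma, adjusted p = 0.14 in tt4, 0.133 in sng1 and 0.0799 in WT). CYP71B34 had UV effects of −0.66 in tt4, −0.64 in sng1 and −0.68 in WT (limma, adjusted p from 0.0709 to 0.0922).

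UGT73D1, UGT73C1, CYP71B23 and UGT80B1 were called in exactly 2 genotypes. Their calls, other than that of UGT73D1 in tt4, ended without certain arrays, left out 1 at a time. UGT73D1 rose by 3.06 in tt4 (limma, adjusted p = 0.00786, or 1.18 with adjusted p = 0.1 at a floor of 64). Its rise of 2.23 in sng1 (adjusted p = 0.044) lost the call without any sng1 array, any tt4_CO array, tt4_UV 1, tt4_UV 2 or WT_UV 3 (adjusted p from 0.0506 to 0.141). The sng1 rise was 0.89 with a floor of 64 (adjusted p = 0.242), and it also missed the threshold with the replicate block (adjusted p = 0.0588) and with values as deposited (adjusted p = 0.0564). UGT73C1 rose by 2.5 in tt4 (adjusted p = 0.0274), a call lost without tt4_CO 2 (1.68, adjusted p = 0.12), tt4_UV 2 (adjusted p = 0.0546) or tt4_UV 3 (adjusted p = 0.093). In WT, UGT73C1 rose by 2.36 (adjusted p = 0.0391), and the value was 1.42 without WT_CO 2 (adjusted p = 0.157). The WT call was also lost without WT_CO 1, WT_UV 2, WT_UV 3, sng1_CO 2 or any sng1_UV array (adjusted p from 0.0505 to 0.119). Without tt4_UV 3, tt4_CO 2 and WT_CO 2 together, UGT73C1 rose by 1.36 in tt4 and by 1.41 in WT (adjusted p = 0.0189 in tt4 and 0.0107 in WT).

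CYP71B23 rose by 2.06 in tt4 (limma, adjusted p = 0.0215), a call lost without tt4_CO 2 (1.43, adjusted p = 0.096), tt4_UV 1 (adjusted p = 0.0577) or tt4_UV 2 (adjusted p = 0.0552). In WT, CYP71B23 rose by 1.79 (adjusted p = 0.0447), and the value was 1.02 without WT_CO 2 (adjusted p = 0.179). That call was lost without any array other than tt4_CO 1, tt4_CO 2 and WT_CO 3, and without tt4_UV 3, tt4_CO 2 and WT_CO 2 together the value was 1.03 (adjusted p = 0.0239). UGT80B1 rose by 0.19 in tt4 (adjusted p = 0.0355) and 0.21 in WT (adjusted p = 0.0232). The tt4 call was lost without any tt4_CO array, tt4_UV 1 or tt4_UV 3 (adjusted p from 0.0626 to 0.114), and the WT call without WT_UV 2, WT_UV 3 or WT_CO 1 (adjusted p from 0.0583 to 0.103).

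Other genes were called in exactly 1 genotype. UGT76B1 rose by 2.18 in tt4 (limma, adjusted p = 0.0107), UGT73B1 fell by 0.50 in tt4 (adjusted p = 0.00515) and CYP84A4 fell by 0.67 in WT (adjusted p = 0.0103), and these 3 calls held without any 1 array. With only the 6 arrays of the genotype in the fit, UGT73B1 (adjusted p = 0.0558) and CYP84A4 (adjusted p = 0.0602) lost the call. UGT76E12 rose by 1.99 in sng1 (adjusted p = 0.0234), a call lost without sng1_UV 2, sng1_UV 3, sng1_CO 1 or sng1_CO 3 (adjusted p from 0.0529 to 0.0815). CYP71B36 rose by 1.57 in WT (adjusted p = 0.0278), a call lost without WT_UV 2, WT_UV 3, WT_CO 2 or WT_CO 3 (adjusted p from 0.0776 to 0.0901), and 0.83 with a floor of 64 (adjusted p = 0.0849). UGT72B3 fell by 0.79 in tt4 (adjusted p = 0.0262), a call lost without tt4_UV 3, tt4_CO 2 or tt4_CO 3 (adjusted p from 0.0559 to 0.109). UGT76C2 fell by 0.95 in tt4 (adjusted p = 0.047), a call lost without any sng1 array, tt4_UV 1, tt4_UV 3, tt4_CO 2, tt4_CO 3, WT_UV 3 or WT_CO 1 (adjusted p from 0.056 to 0.18). The cyclophilin gene CYP59 rose by 0.59 in sng1 (adjusted p = 0.0113). CYP71B38 was called in sng1, at 0.64 (adjusted p = 0.0292), with all sng1_CO arrays at the floor. Its call was lost without any sng1 array other than sng1_UV 3 (adjusted p from 0.0687 to 0.103), and its effect was 0.00 with a floor of 64.

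Several of the calls in single genotypes also ended under other settings. With only the 6 arrays of the genotype in the fit, those of CYP71B23, UGT73C1, UGT73C7 and UGT80B1 in tt4 and WT, of CYP71B6 and CYP71B36 in WT and of UGT72B3 and UGT76C2 in tt4 ended (limma, adjusted p from 0.0507 to 0.202). Of these genes, CYP71B6 and UGT73C7 were among the 7 called higher in all 3 genotypes. With array weights, those of UGT72B3, UGT76C2 and UGT80B1 in tt4 ended (limma, adjusted p from 0.0947 to 0.135). With a floor of 64, those of CYP71B23 in WT (limma, adjusted p = 0.0521) and UGT76C2 in tt4 (adjusted p = 0.0548) ended. The call of UGT76C2 in tt4 also ended with the replicate block (limma, adjusted p = 0.0662). Without the probe sets at the floor on all arrays, the calls of UGT80B1 ended in tt4 (limma, adjusted p = 0.0923) and WT (adjusted p = 0.0647). Leaving out tt4_UV 3, tt4_CO 2 and WT_CO 2 together also ended calls in each genotype. They were those of UGT72B3, UGT76C2 and UGT80B1 in tt4, UGT73D1 in sng1 and CYP71B6 and UGT80B1 in WT (limma, adjusted p from 0.0557 to 0.299).

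None of the 66 genes was called between genotypes. For tt4 minus WT, limma called 0 of 66 under UV, against 0.0132% of all probe sets, and 1 gene had an unadjusted p under 0.05, against 4.76%. In CO it called 0 of 66, against 0.022%, and 3 genes had such a p, against 4.59%. For sng1 minus WT, limma called 0 of 66 under UV, against 0.022%, and 6 genes had such a p, against 4.44%. In CO it called 0 of 66, against 0.00879%, and 1 gene had such a p, against 5.1%. The difference of UV effects was called by limma for 0 of 66 genes in tt4 minus WT, against 0.0044%, with 3 genes at an unadjusted p under 0.05, against 4.54%. For sng1 minus WT it was called for 0 of 66, against 0.0%, with 1 such gene, against 3.02%. Under every alternative that was run these counts were 0 as well.

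UGT76D1 and UGT84A4 were picked, with all values known, for their small unadjusted p-values. In CO, UGT76D1 averaged 4.83 ± 0.41 in tt4, 4.53 ± 0.14 in sng1 and 5.40 ± 0.32 in WT (SD, n = 3 each). The 3 sng1 CO arrays lay below the 3 WT CO arrays, and the difference was −0.87 ± 0.20 (limma, adjusted p = 0.54). Under UV, UGT76D1 averaged 6.92 ± 0.19 in tt4, 6.53 ± 0.18 in sng1 and 6.63 ± 0.16 in WT (SD, n = 3 each), and its UV effect was 0.86 larger in tt4 than in WT and 0.77 larger in sng1 than in WT (limma, adjusted p = 1 for both). Both differences share the WT arrays.

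UGT84A4 averaged 6.11 ± 0.07 in tt4, 6.08 ± 0.28 in sng1 and 6.54 ± 0.14 in WT under UV (SD, n = 3 each). In CO, UGT84A4 averaged 6.14 ± 0.13 in tt4, 6.41 ± 0.02 in sng1 and 6.54 ± 0.12 in WT. All tt4 arrays lay below all WT arrays of the same light, with differences of −0.43 under UV (limma, adjusted p = 0.829) and −0.41 in CO (adjusted p = 0.756). For sng1 minus WT under UV the difference was −0.47 (adjusted p = 0.948). None of these passes the threshold.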

How the data were processed

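The deposited table holds intensities on a linear scale, for 22810 probe sets and 18 arrays. Biotin-labelled cRNA was made from 10 µg of total RNA, per the labels' protocols. The values show that the authors scaled each array, since the mean without the top and bottom 2% of probe sets was 500 throughout. The sources used here give neither the software nor the background method.

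The 64 control probe sets were left out after quantile normalization in limma 3.58.1 (R 4.3.3). Signals under 16 were set to 16 and log2 was taken. One linear model with 6 groups was fitted to 18 arrays (12 residual degrees of freedom), with eBayes and Benjamini-Hochberg adjustment over 22746 probe sets in each of 10 comparisons. The number of arrays limits the precision, and p-values measure the spread between single plants. The fit was tested on simulated data for UV minus CO in WT only. Of 100 simulated log2 changes of 1 either way, 73 were recovered, and 97 of 100 changes of 2. There were 14 false calls. Each setting was changed in turn: scaling, floor, filter, array weights, replicate block, the arrays fitted and each array left out.

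Of the probe sets, 13513 had 1 annotated gene, 503 had several and 8730 were not listed. Genes, roles and neighbours came from the supplied annotation tables (TAIR10.1) and textbook knowledge. Members and gene lists were chosen with earlier results of these data known. Named by rule are up to 10 rises and 10 falls of the mean UV effect, up to 5 each way in each genotype, up to 3 each way between genotypes (none was called), up to 4 genes of each role list, and the extremes of subfamilies. Other genes named, such as CYP71B24, CYP71B38, UGT71B5, UGT76E11, UGT73C7 and UGT74F1, and the test of neighbours were chosen after their values were seen. Same-numbered arrays did not deviate together as a rule (12 of 45 pairs above 0.1), so the fit has no block. The highest correlation, 0.391, was between WT_CO 2 and tt4_CO 2, which were also the lowest CO arrays of CYP71B23 and UGT73C1. Leaving out 1 array does not remove what these arrays share. They were left out together only in the setting without the 3 arrays of lowest weight.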

Additional observations from a re-analysis of the deposited data

How the results depend on the processing

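Results with the mean over genotypes changed little. The count of 31 genes called was 30 to 32 when any 1 array was left out and 29 to 32 under the other settings, and no named gene reversed its direction. The 61 results of named genes were recomputed 1500 times in all, of which 1393 stayed on the same side of the threshold and 107 lost the call, and 25 calls of the mean UV effect of the genes named by the rule were kept in all of these (UGT76C2 and UGT85A2 ended only in a setting added later), while those of UGT71B5 and UGT76E11, named after their values were seen, were not. Calls in single genotypes were less stable. With only the arrays of that genotype in the fit, the counts were 4 in tt4 (in place of 16), 21 in sng1 (in place of 12) and 5 in WT (in place of 13), and with array weights the sng1 count was 25. The cause was not tested. Leaving out 1 array gave 12 to 18 genes in tt4, 9 to 15 in sng1, 9 to 16 in WT and 6 to 9 in all 3 genotypes (8 with all arrays), and 0 to 0 in every comparison of genotypes. With the replicate block, the counts were 30 for the mean, 17 in tt4, 12 in sng1, 16 in WT, 9 in all 3 genotypes and 0 in each comparison of genotypes; the numbers do not pair the plants, since correlations of same-numbered arrays ran from −0.365 to 0.391. Without the 3 arrays of lowest weight, chosen after seeing the data, the counts were 29, 17, 18 and 14 in the same order and 10 in all 3 genotypes. In that setting the mean calls of UGT76C2, UGT85A2 and UGT76E11 ended. The mean of several probe sets of a gene could not be run, because every gene had 1. Scaling moved the median of all probe sets by at most 0.022 (as deposited, −0.022). Signals near the floor limit genes such as UGT73D1 and UGT76D1, whose fold changes depend on where the floor is set.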

Other observations

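Some P450 and UGT genes lie outside the 66 because their probe set is shared or carries another symbol; their values were known when they were picked. The probe set shared by UGT71D1 and AT2G29710 ran from 5.66 to 6.83 on UV arrays and from 6.96 to 7.66 on CO arrays, with no overlap and a mean UV effect of −0.97 ± 0.14 (limma, adjusted p = 0.000101). It fell in tt4 by 1.06, in sng1 by 1.09 and in WT by 0.76. A probe set shared by AT1G73885 and UGT89B1, a UGT of phenolic acids and flavonols, was lower by 0.44 (a UV effect of −0.44, adjusted p = 0.00287).

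Rises were found on the probe sets shared by UGT73B2 and UGT73B3 (0.57 ± 0.16, limma, adjusted p = 0.0105) and by CYP71B19 and CYP71B20 (0.46 ± 0.12, limma, adjusted p = 0.00863). For these the share of either gene in the signal was not tested. The sterol glucosyltransferase gene UGT80A2, listed as SGT, fell by 0.24 ± 0.08 (limma, adjusted p = 0.0188), whereas UGT80B1 of the same reaction rose by 0.16. UGT72B1, listed as GT72B1, was not called (−0.19 ± 0.13, adjusted p = 0.267).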
